A study of Homo sapiens with 33 samples.

Results

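The genes described here are 10 regulators and receptors of endothelial and blood development, KDR, TEK, CDH5, PECAM1, ERG, FLI1, SOX7, SOX18, TAL1 and LMO2. They were chosen by name and are 10 of the 35805 genes listed in the RNA-seq data. Their start sites account for 57 of the 153958 promoter windows in the ChIP-seq data. The study asked what the loss of EZH2, the catalytic subunit of the Polycomb complex PRC2 that trimethylates histone H3 at lysine 27 (H3K27me3), does to human embryonic stem cells (ESCs). All cells were of the established ESC line H9, grown on mouse feeder cells and flow-sorted for the surface antigen SSEA4. The 4 genotypes were EZH2+/+ (wild type), EZH2-/+ (heterozygous, disrupted by CRISPR/Cas9), EZH2-/- (null) and EZH2-/- +EZH2 (null cells in which doxycycline switched on an EZH2 transgene, called restored here), with 3 RNA-seq libraries each. Null and restored cells both came from a heterozygous line that carried the transgene and was targeted again, and the heterozygous and null lines are clones. Restored and null cells differ in doxycycline as well as in EZH2, and the effects of these cannot be told apart. For all 4 genotypes there was ChIP-seq of H3K27me3, H3K27ac, H3K4me3 and H3K4me1 with input, and for wild-type ESCs also of EZH2.

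Endothelial and blood cells arise from a shared mesodermal progenitor. KDR, the main receptor for VEGF, marks that progenitor early, and the ETS factors ERG and FLI1 and the SOXF factors SOX7 and SOX18 then switch on endothelial genes. TAL1 and LMO2 sit in 1 DNA-binding complex that starts the blood programme, TEK (also called TIE2) is the receptor for angiopoietins, and CDH5 (VE-cadherin) and PECAM1 (CD31) are adhesion proteins of the junctions between endothelial cells. In undifferentiated ESCs many start sites of such lineage regulators lie in CpG-rich DNA that carries H3K27me3 together with the activating mark H3K4me3, a state called bivalent.

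The 10 genes differed in the sequence that such a state is built on. RefSeq promoter sequences (GRCh38.p14) were at hand for 4 of the 10 genes, KDR, TAL1, TEK and ERG, and the bases just before a start site are shown because they contrast promoters with and without H3K27me3. Each is written 5′ to 3′ on the strand of the gene, with every CpG dinucleotide (the letters CG, which read the same on both strands) in capitals. For ERG the upstream start site, which carried H3K27me3, and an internal start site, which did not, are both given, and both stretches lie between exons of longer ERG transcripts in GENCODE release 44. The stretches of KDR, TAL1 and TEK lie outside all annotated transcripts, and that of TEK stops before the first annotated exon.
ERG upstream, chr21:38660668-38660917, minus strand: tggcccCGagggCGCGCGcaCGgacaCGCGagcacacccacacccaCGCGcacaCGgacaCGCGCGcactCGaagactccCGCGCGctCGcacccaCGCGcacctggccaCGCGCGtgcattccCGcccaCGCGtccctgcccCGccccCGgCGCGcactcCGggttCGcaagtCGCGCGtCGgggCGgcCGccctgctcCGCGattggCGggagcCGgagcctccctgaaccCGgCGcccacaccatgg
TAL1, chr1:47232336-47232585, minus strand: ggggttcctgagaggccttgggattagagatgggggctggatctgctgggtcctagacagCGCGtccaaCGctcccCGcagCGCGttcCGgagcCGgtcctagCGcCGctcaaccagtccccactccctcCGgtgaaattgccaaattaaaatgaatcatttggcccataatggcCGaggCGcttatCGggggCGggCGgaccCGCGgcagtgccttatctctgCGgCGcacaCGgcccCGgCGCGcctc
KDR, chr4:55125596-55125845, minus strand: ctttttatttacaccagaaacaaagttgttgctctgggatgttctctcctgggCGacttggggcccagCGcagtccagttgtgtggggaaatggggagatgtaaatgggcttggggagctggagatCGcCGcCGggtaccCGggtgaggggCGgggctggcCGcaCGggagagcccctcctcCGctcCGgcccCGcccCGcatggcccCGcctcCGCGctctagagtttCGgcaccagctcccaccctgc
TEK, chr9:27108975-27109140, plus strand: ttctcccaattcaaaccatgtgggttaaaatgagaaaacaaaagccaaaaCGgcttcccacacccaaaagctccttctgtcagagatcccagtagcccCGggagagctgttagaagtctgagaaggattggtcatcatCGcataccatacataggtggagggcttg
ERG internal, chr21:38498478-38498727, minus strand: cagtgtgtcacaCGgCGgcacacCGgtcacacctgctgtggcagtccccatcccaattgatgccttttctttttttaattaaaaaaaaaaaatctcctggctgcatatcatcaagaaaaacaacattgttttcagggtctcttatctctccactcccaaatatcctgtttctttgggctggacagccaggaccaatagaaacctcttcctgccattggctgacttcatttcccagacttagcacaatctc

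The upstream ERG stretch held 44 CpGs in 250 bases (17.6 per 100 bases), a density that 0.769% of the 35116 RefSeq promoters reached over the 250 bases before their start. The stretch of TAL1 held 9.6 CpGs per 100 bases (reached by 23.7% of promoters) and that of KDR 6.8 (39.0%). TEK had 3 CpGs in 166 bases (1.81 per 100 bases, reached by 65.7%), and the internal ERG stretch had 3 in 250 bases (1.2 per 100 bases, 77.1%). The median promoter had 4.4. The first 3 stretches lay in windows with 16.5, 33.4 and 8.74 RPM of H3K27me3 in wild-type ESCs, and the 2 CpG-poor ones in windows with 1.10 and 1.397 RPM.

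RNA levels are given in RPM, the read count of a gene scaled to the reads of its library. From 16587860 to 36589089 reads per library fell on genes, and 3 reads, taken as the floor of detection, were worth 0.0528 to 0.120 RPM. EZH2 itself was at 59.5 to 68.6 RPM in wild-type, 45.7 to 55.4 in heterozygous, 8.65 to 11.5 in null and 256 to 385 RPM in restored ESCs. Differences between genotypes were tested with limma on log2(RPM + 0.1) of all 12 libraries over 20608 genes, and a gene was called at a Benjamini-Hochberg adjusted p under 0.05. On this scale the difference of a low gene is understated. The study calls the libraries of a line biological replicates, without saying that they came from separate cultures, so the p-values measure only the spread between these libraries. In bulk RNA of this kind, fewer cells that express a gene and less RNA per cell cannot be told apart.

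Per kilobase of exon, KDR and TEK stood far above the other 8 genes in wild-type ESCs. KDR was at 7.49 and TEK at 4.65 RPM per kb, followed by TAL1 at 0.323, LMO2 at 0.275, SOX7 at 0.253, SOX18 at 0.0701, CDH5 at 0.0377, PECAM1 at 0.0351, FLI1 at 0.0159 and ERG at 0.0127. The order was different in null ESCs. There KDR came first at 9.71 RPM per kb, SOX18 second at 0.958, and TEK at 0.656, LMO2 at 0.594, FLI1 at 0.568 and SOX7 at 0.460 lay close together, ahead of PECAM1 at 0.184, TAL1 at 0.120, CDH5 at 0.103 and ERG at 0.0316. The plot of RPM by library shows every value.

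**Figure D1:**
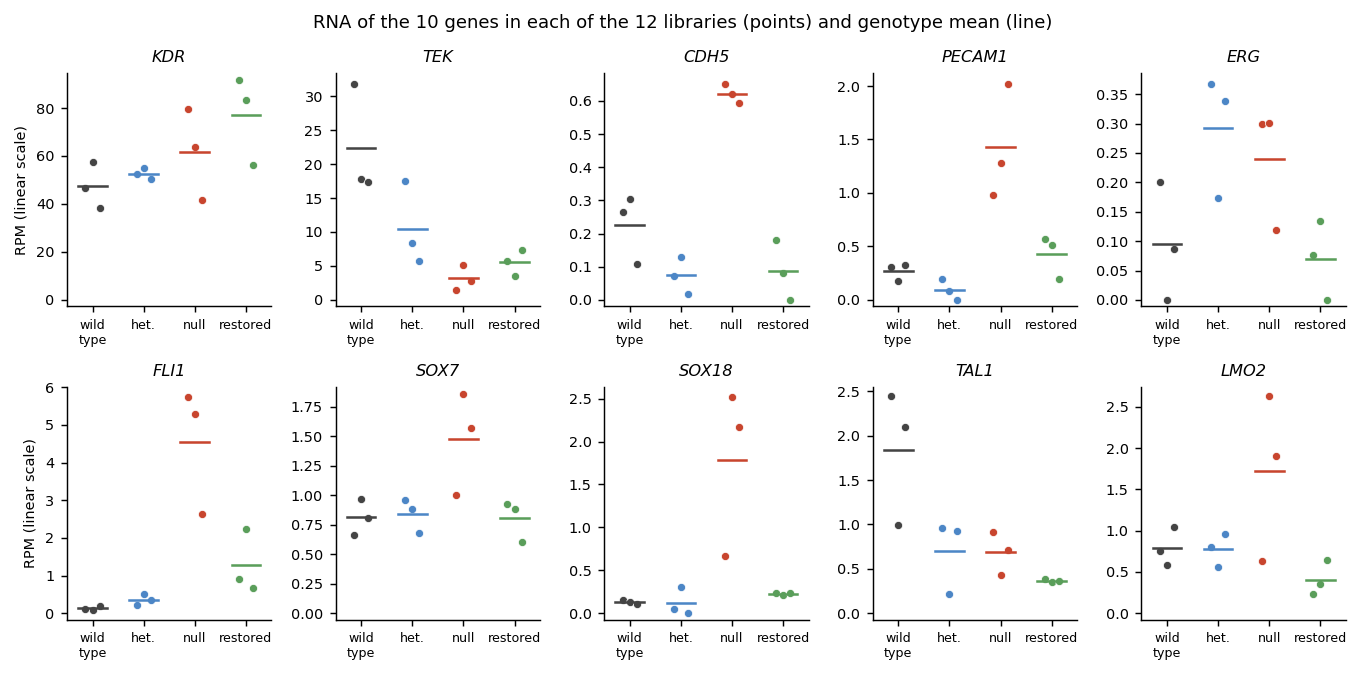
RNA of the 10 genes in RPM on a linear axis, 1 point per library in the order of the library numbers and a line at the mean of the 3 libraries of each genotype. CDH5, PECAM1, FLI1, SOX7 and SOX18 have all 3 null libraries above all wild-type libraries, TEK and TAL1 have them below, and KDR, ERG and LMO2 overlap.

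In null relative to restored ESCs, the comparison that returns EZH2 to the same mutant cells, 3 of the 10 genes were called higher (CDH5, FLI1 and SOX18) and 0 lower. Of all genes tested, 2.63% were called higher and 0.524% lower. In null relative to wild-type ESCs, 4 were called higher (FLI1, SOX18, PECAM1 and CDH5) and 1 lower (TEK), where 12.6% of all genes were called higher and 18.8% lower. The median log2 difference of the 10 genes was 1.30 against the restored cells, beside 0.02 over all genes, and 0.87 against wild type, beside -0.13 over all genes. These comparisons share the null libraries. The plot of differences shows each estimate with its interval.

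**Figure D2:**
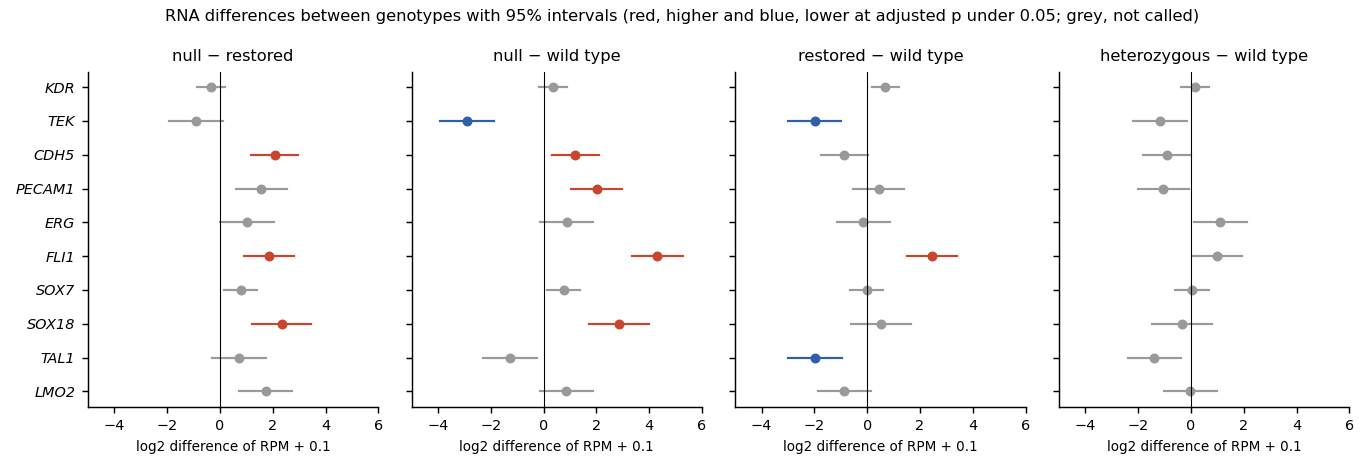
Log2 difference of RPM + 0.1 for each gene in the 4 comparisons, with the 95% interval from limma (not adjusted for the number of genes), red where called higher, blue where called lower and grey where not called. FLI1, SOX18, PECAM1 and CDH5 are red and TEK is blue in the panel of null against wild type, and no gene is called in the heterozygous panel.

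Of the receptors KDR and TEK, only TEK was called in null relative to wild-type ESCs, and it was lower. KDR (chr4:55078477-55125589, minus strand), read at 46.7, 57.6 and 38.2 RPM in the wild-type libraries, was at 52.6, 54.8 and 50.2 in heterozygous, 79.4, 63.8 and 41.4 in null and 91.8, 83.5 and 56.1 RPM in restored libraries. The genotypes overlapped, and library 3 was the lowest in every genotype. The difference between null and wild type was 0.34 (SE 0.24, 95% interval -0.18 to 0.87, adjusted p = 0.30 from limma), called in 1 of 13 alternatives (without library 3 of every genotype, adjusted p = 0.033). Between restored and wild-type cells it was 0.69 (SE 0.24, adjusted p = 0.093), which passed the threshold once the library number entered limma as a block (adjusted p = 0.0090), or without restored library 3 (0.90, adjusted p = 0.038).

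TEK (chr9:27109141-27230175, plus strand) was the 1 member called lower in null than in wild-type ESCs. The wild-type libraries had 31.9, 17.8 and 17.4 RPM, the heterozygous 17.5, 8.32 and 5.69, the null 1.495, 5.14 and 2.82 and the restored 5.73, 3.59 and 7.27 RPM. All null and all restored libraries lay below all wild-type libraries, and null and restored libraries overlapped. The mean fell from 22.3 ± 8.24 to 3.15 ± 1.85 RPM (SD, n = 3 libraries each), a log2 difference of -2.89 (SE 0.47, adjusted p = 0.00079), called under every alternative of the fit. In restored relative to wild-type ESCs it was -1.99 (SE 0.47, adjusted p = 0.019), a call that was lost without wild-type library 1 (-1.71, adjusted p = 0.086), restored library 1 (-2.05, adjusted p = 0.051) or restored library 2 (-1.72, adjusted p = 0.088), and without a filter on low values (adjusted p = 0.086). Between null and restored cells the difference was -0.90 (95% interval -1.92 to 0.12, adjusted p = 0.36).

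The junction proteins had few reads outside the null cells, at most 12 per library for CDH5 and 22 for PECAM1. CDH5 (chr16:66366622-66404786, plus strand) was at 0.266, 0.304 and 0.109 RPM in wild-type libraries (12, 12 and 5 reads), 0.0735, 0.130 and 0.0178 in heterozygous, 0.651, 0.619 and 0.594 in null (37, 33 and 20 reads) and 0.180, 0.0804 and 0 RPM in restored libraries. The null libraries were close to each other and lay above all 9 others. The log2 difference was 2.07 against restored cells (SE 0.41, adjusted p = 0.019) and 1.199 against wild type (SE 0.41, adjusted p = 0.043). The second call stood in 3 of 12 alternatives. It was lost when any 1 of the 6 libraries was left out (adjusted p = 0.057 to 0.15), without a filter on low values (0.086), with voom weights (0.0502) and without library 3 of every genotype (0.0506). The first call stood in 6 of 12 and was lost without null library 2 or 3 or restored library 2 or 3 (adjusted p = 0.064 to 0.096), without a filter (0.055) and with voom weights (0.068).

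PECAM1 (chr17:64319415-64413776, minus strand) had 0.311, 0.178 and 0.328 RPM in wild-type, 0.196, 0.0864 and 0 in heterozygous, 0.985, 1.28 and 2.02 in null and 0.566, 0.509 and 0.200 RPM in restored libraries. Here too the null libraries lay above all others. The rise over wild type was 2.01 on the log2 scale (SE 0.45, adjusted p = 0.0052) and was called under every alternative that kept the gene. Against restored cells the difference was 1.57 (SE 0.45, adjusted p = 0.083), which was called with the replicate block (adjusted p = 0.047) and with a pseudocount of 1 RPM (0.76, adjusted p = 0.018).

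Among the transcription factors, FLI1 and SOX18 rose in null ESCs in both comparisons, SOX7 was less clear and ERG was too low to judge. FLI1 (chr11:128686535-128813267, plus strand) had 0.111, 0.0761 and 0.197 RPM in wild-type libraries (5, 3 and 9 reads), 0.220, 0.519 and 0.338 in heterozygous, 5.73, 5.29 and 2.64 in null (326, 282 and 89 reads) and 0.90005, 2.22 and 0.679 RPM in restored libraries. The 4 genotypes did not overlap, from wild type as the lowest through heterozygous and restored to null. The step from wild type to heterozygous was narrow. The highest wild-type and the lowest heterozygous library had 9 reads each, and the difference was not called (0.99, adjusted p = 0.45 from limma). The null mean, 4.56 ± 1.67 RPM (SD, n = 3), was 35.6 times the wild-type mean of 0.128 ± 0.0620 RPM, and the limma difference was 4.31 (SE 0.44, adjusted p = 5.2e-05). FLI1 was also higher in restored than in wild-type ESCs (2.45, SE 0.44, adjusted p = 0.0051), and both calls stood under every alternative.

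FLI1 was higher in null than in restored ESCs by 1.86 (SE 0.44, adjusted p = 0.041), a call that was lost in each fit without 1 of the 6 libraries except restored library 2 (adjusted p = 0.051 to 0.20 where lost) and stood in 5 of 13 alternatives. SENCR, an RNA gene on the opposite strand inside FLI1 (chr11:128691672-128696023), had no read in the 6 wild-type and heterozygous libraries, 0.208 to 0.528 RPM in null and 0 to 0.134 RPM in restored libraries. The reads were counted without strand, so reads of the overlapping exons of SENCR and FLI1 cannot be told apart.

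SOX18 (chr20:64047582-64049641, minus strand) was at 0.155, 0.127 and 0.109 RPM in wild-type, 0.0490, 0.302 and 0 in heterozygous, 0.668, 2.52 and 2.17 in null and 0.231, 0.214 and 0.240 RPM in restored libraries. Null library 1 was the lowest of the null libraries and still above all others. The rise over wild type was 2.85 (SE 0.52, adjusted p = 0.0016), called under every alternative that kept the gene. Over restored cells it was 2.34 (SE 0.52, adjusted p = 0.031), lost without null library 2 or 3 or any 1 restored library (adjusted p = 0.074 to 0.17) and called in 4 of 12 alternatives. SOX18 overlaps 1 end of ZNF512B, a gene on the same strand whose level ranged from 13.1 to 53.3 RPM over the 12 libraries, with 28.5 to 34.9 RPM in null and 18.5 to 40.3 RPM in wild-type libraries, so reads of the shared stretch are uncertain.

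SOX7 (chr8:10723768-10730512, minus strand) had 0.666, 0.964 and 0.809 RPM in wild-type, 0.955, 0.886 and 0.676 in heterozygous, 1.00, 1.86 and 1.57 in null and 0.926, 0.884 and 0.600 RPM in restored libraries. All null libraries were above all others, with null library 1 the closest to them. The difference from wild type was 0.76 (SE 0.29, adjusted p = 0.064), called with the replicate block (adjusted p = 0.037), with a pseudocount of 1 RPM (0.44, adjusted p = 0.039), with median-ratio scaling (0.86, adjusted p = 0.040) or without null library 1 (1.00, adjusted p = 0.031). From restored cells it was 0.78 (SE 0.29, adjusted p = 0.18). SOX7 shares its locus with CTD-2135J3.4 on the same strand. That gene was at 6.97 to 8.87 RPM in wild-type and 5.41 to 10.2 RPM in heterozygous libraries. In null libraries it was at 10.2 to 13.4 RPM and in restored ones at 8.87 to 9.54 RPM. Its null libraries thus also lay above all wild-type and restored libraries, and reads of the stretch it shares with SOX7 are uncertain.

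ERG (chr21:38380027-38661780, minus strand) had 9, 0 and 4 reads in wild-type, 15, 8 and 19 in heterozygous, 17, 16 and 4 in null and 3, 5 and 0 reads in restored libraries. It was at 0.367 RPM or less in all 12 libraries, and at or under the floor of 3 reads in 1 wild-type and 2 restored libraries. The groups overlapped between null and either wild type (0.88, SE 0.46, adjusted p = 0.17) or restored cells (1.03, SE 0.46, adjusted p = 0.29). A difference in ERG was not detectable at this depth.

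TAL1 and LMO2, partners in 1 complex, did not share a pattern. TAL1 (chr1:47216290-47232220, minus strand) had 2.44, 0.989 and 2.10 RPM in wild-type, 0.955, 0.216 and 0.925 in heterozygous, 0.915, 0.432 and 0.712 in null and 0.386, 0.348 and 0.360 RPM in restored libraries. Every library of the other 3 genotypes was below every wild-type library, and the restored libraries were below the null ones. TAL1 fell by 1.98 in restored relative to wild-type ESCs (SE 0.47, adjusted p = 0.020), a call lost without wild-type library 1 or 3 or restored library 1 or 2 (adjusted p = 0.055 to 0.088) and called in 6 of 12 alternatives.

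In null relative to wild-type ESCs the difference of TAL1 was -1.26 (SE 0.47, adjusted p = 0.057) and with the replicate block it was called lower (adjusted p = 0.0076), as it was without wild-type library 2 (-1.64, adjusted p = 0.036) and with a pseudocount of 1 RPM (-0.73, adjusted p = 0.025). Between null and restored cells the difference was 0.71 (SE 0.47, adjusted p = 0.48). In heterozygous relative to wild-type ESCs it was -1.38 (SE 0.47, adjusted p = 0.26), with an adjusted p of 0.043 with the block. The antisense gene RP1-18D14.7 inside TAL1 was at 0.0507 to 0.219 RPM in wild-type and at most 0.0880 RPM in all other libraries.

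LMO2 (chr11:33858576-33892289, minus strand) was at 0.755, 0.583 and 1.05 RPM in wild-type, 0.808, 0.562 and 0.961 in heterozygous, 0.633, 2.63 and 1.90 in null and 0.231, 0.348 and 0.640 RPM in restored libraries. Null library 1 lay among the wild-type libraries and below restored library 3, while null libraries 2 and 3 were above all others. The difference from restored cells was 1.73 (SE 0.46, adjusted p = 0.065), called with the replicate block (adjusted p = 0.021) and without null library 1 (2.29, adjusted p = 0.0089). From wild type it was 0.86 (SE 0.46, adjusted p = 0.18), called without null library 1 (1.42, adjusted p = 0.023).

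With the library number as a block, 5 of the 10 genes were called higher and 0 lower in null than in restored ESCs, where 6.19% and 3.21% of all genes were, and LMO2 and PECAM1 were the ones added. Against wild type the block gave 5 higher and 2 lower, where 17.3% of all genes were called higher and 28% lower. All null libraries lay above all restored libraries for 6 genes (13.5% of all genes) and below them for 0 (9.7%). They lay above all wild-type libraries for 5 genes (20.6%) and below them for 2 (29.2%). All restored libraries lay above all wild-type libraries for FLI1 and SOX18 (9.77% of all genes) and below them for TAL1 and TEK (22.4%).

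In heterozygous relative to wild-type ESCs, 0 of the 10 genes were called in either direction by limma, where 0.18% of all genes were called higher and 0.966% lower. Unadjusted p-values under 0.05 were found for 6 of them, with ERG and FLI1 higher and TAL1, TEK, CDH5 and PECAM1 lower, where 10.6% of all genes had such a p in either direction. With voom weights 0 were called as well. With the block TAL1 was called lower and 0 genes higher, where 2.16% and 0.718% of all genes were. All heterozygous libraries lay above all wild-type libraries for FLI1 (3.17% of all genes) and below them for TAL1 (11.9%). The restored ESCs differed from wild type in 3 of the 10 genes, FLI1 higher and TAL1 and TEK lower, where 3.4% of all genes were called higher and 6.9% lower. With the block FLI1 and KDR were called higher and TAL1 and TEK lower, where 6.26% and 16.1% of all genes were. Between restored and wild-type cells, SOX7 was the closest, with a difference of -0.02 (95% interval -0.66 to 0.61).

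The deposited RPM were used without a further scaling factor. With median-ratio scaling, 52.7% of the genes called in null relative to wild-type ESCs were higher, against 40.1% without it, and for restored relative to wild type the share was 49.6% against 33%. The median of all genes moved from -0.13 to -0.03 on the log2 scale in the first and from -0.15 to -0.04 in the second. The direction of each call named above was the same with either scaling.

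The chromatin at the start sites separated the 10 genes into 7 with H3K27me3 in wild-type ESCs and 3 without. For each gene the 5 kb window (2.5 kb either side of a start site) with the most H3K27me3 in wild type was taken, and a promoter counted as marked where H3K27me3 was over 5.36 RPM and input under it, the level of the rule in the methods of the study. KDR, ERG, FLI1, SOX7, SOX18, TAL1 and LMO2 were marked and CDH5, PECAM1 and TEK were not, where 17.5% of the 35683 gene names were marked. These 6235 names are far more than the promoters the study counts as positive for H3K27me3, so the marked set here is not that of the study. The deposited chromatin values hold no separate replicates and are given without a test. The study describes them as averages over biological replicates, more of them than the values show. The steps between low values are those of a mean of 2 libraries for the histone marks and input and of 1 library for EZH2, so the number averaged is inferred here and uncertain. On that reading, 1 read of a library was worth 0.292 RPM for H3K4me3 in wild type, the shallowest, 0.0421 to 0.115 RPM for the other histone and input libraries of wild-type and null ESCs, and 0.0107 RPM for EZH2.

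FLI1 had the most H3K27me3 of the 10 genes, with 47.0 RPM in wild-type, 55.4 in heterozygous, 1.53 in null and 36.9 RPM in restored ESCs. SOX7 had 41.4, 42.9, 1.21 and 33.1 RPM and TAL1 39.6, 47.3, 1.77 and 34.4 RPM in the same order of genotypes. All 3 were above 99% of gene names in wild type. SOX18 followed at 24.1, 30.8, 0.738 and 20.8 RPM, LMO2 at 18.2, 21.7, 1.00 and 16.5 RPM, ERG at 16.5, 15.3, 0.686 and 10.8 RPM and KDR at 8.74, 7.64, 0.796 and 5.17 RPM. In null ESCs the marked genes thus ranged from 0.686 to 1.77 RPM, 0.494 to 1.12 times the input of the same cells.

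The 3 unmarked genes were low from the start. CDH5 had 2.21 RPM of H3K27me3 in wild type and 1.03 RPM in null, PECAM1 2.65 and 0.560 RPM and TEK 1.15 and 0.759 RPM. The median difference between null and wild type over the 7 marked genes was -4.41 on the log2(RPM + 0.1) scale, beside -3.67 over all marked gene names, and over the 3 unmarked genes -1.03, beside -0.67 over all unmarked names. H3K27me3 was lower by at least 1 in 9 of the 10 genes, all but TEK, and in 48% of all gene names. RPM are relative to the reads of each library, and no reference chromatin was added that would give absolute amounts.

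Restored ESCs had 59.2% of the wild-type H3K27me3 value at KDR, 65.9% at ERG, 78.7% at FLI1, 80.0% at SOX7, 86.2% at SOX18, 86.8% at TAL1 and 90.9% at LMO2. KDR, with the least H3K27me3 of the 7, had the lowest share. LMO2, with less than FLI1, had the highest. Over all marked gene names the median log2 difference between restored and wild type was -0.31, and over these 7 genes it was -0.32. It was -0.25 over unmarked names, and the median over all 10 genes went from -0.33 to -0.079 when the values were centred on promoters without H3K27me3. In heterozygous ESCs H3K27me3 was higher than in wild type at 5 of the 7, with a median difference of 0.24 beside 0.06 over all marked names.

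**Figure D3:**
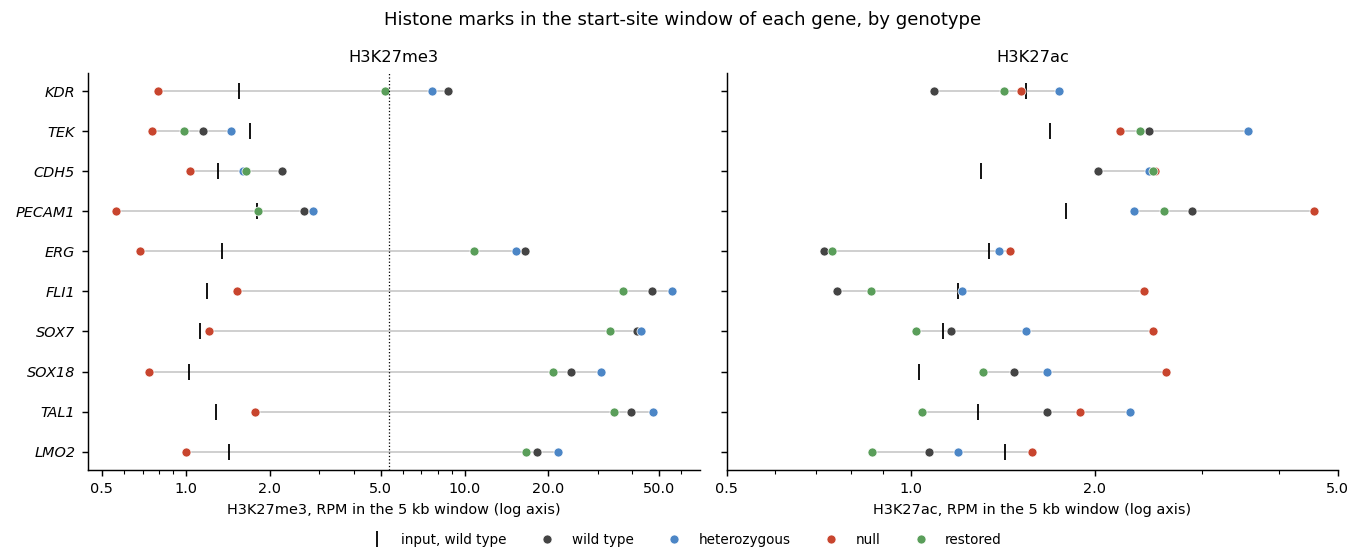
H3K27me3 (left) and H3K27ac (right) in RPM on log axes in the start-site window of each gene, 1 point per genotype (each a deposited average over libraries, with no separate replicates), with the wild-type input as a black bar and the 5.36 RPM level of the rule as a dotted line. For KDR, ERG, FLI1, SOX7, SOX18, TAL1 and LMO2 the null point lies far to the left of the other 3 genotypes in the H3K27me3 panel. In the H3K27ac panel it lies to the right of them for FLI1, SOX7, SOX18, LMO2 and PECAM1, and only slightly so for ERG and CDH5.

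EZH2 itself was most abundant at the genes with the most H3K27me3. In wild-type ESCs the EZH2 value was 5.53 RPM at TAL1, 4.79 at SOX7, 4.65 at SOX18, 3.75 at FLI1, 1.46 at LMO2, 0.977 at ERG and 0.472 RPM at KDR, beside a median of 0.837 RPM over marked and 0.236 over unmarked gene names. PECAM1 had 0.215, TEK 0.290 and CDH5 0.0537 RPM. All 7 marked genes also had H3K4me3 over the same level of 5.36 RPM, from 6.81 RPM at SOX18 to 16.5 RPM at FLI1, as did 82.3% of all marked names. Over all gene names 43.5% were over the H3K4me3 level and 14.4% over both. CDH5, PECAM1 and TEK had 1.68, 2.16 and 2.92 RPM of H3K4me3 in their chosen windows. For CDH5 and PECAM1 those windows lie at internal start sites. At the most upstream start site of CDH5, wild-type ESCs had 5.11 RPM of H3K4me3 and 0.182 RPM of EZH2. At that of PECAM1, H3K4me3 was 3.01 RPM in wild-type, 5.61 in heterozygous and 5.16 RPM in null ESCs, and EZH2 was 0.365 RPM.

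The genes with several start sites were not uniform. All 6 windows of TAL1 were marked (33.4 to 39.6 RPM), as were 6 of 8 windows of FLI1 and 5 of 6 of LMO2. ERG had 3 marked windows of 11, all at its upstream start sites (15.4 to 16.5 RPM), and its internal start sites near the stretch shown above had 1.397 RPM. KDR was marked at 2 of its 3 windows. None of the 8 windows of CDH5, the 9 of PECAM1 or the 4 of TEK was marked. Windows of 1 gene overlap in part and are not independent.

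H3K27ac, the mark of active promoters and enhancers, had a higher RPM in null than in wild-type ESCs at all 7 marked genes, but several values were near input. At FLI1 it was 0.757 RPM in wild-type, 1.21 in heterozygous, 2.41 in null and 0.862 RPM in restored ESCs. At SOX7 the values were 1.16, 1.55, 2.496 and 1.02 RPM and at SOX18 1.48, 1.67, 2.62 and 1.31 RPM. For these 3 genes the null value stood above the others and the restored value was near that of wild type. ERG had 0.720, 1.39, 1.45 and 0.743 RPM, with the heterozygous value about as high as the null one. The median difference between null and wild type over the 7 genes was 0.78, beside 0.66 over marked names, 89.1% of which were higher in null ESCs. It was higher by at least 1 at FLI1 and SOX7, 2 of the 10 genes, and in 9.18% of all gene names. Input of null ESCs was 1.55 RPM at KDR, 1.39 at ERG, 1.32 at LMO2 and 1.598 at TAL1. Null H3K27ac there, at 1.52, 1.45, 1.58 and 1.89 RPM, was near or little above input, and acetylation above background was not tested. At SOX7 and SOX18 null input was 1.07 RPM, and at FLI1 it was also well below H3K27ac. Wild-type H3K27ac was below wild-type input at KDR, ERG, FLI1 and LMO2, and above it at TAL1, SOX7 and SOX18.

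TAL1, KDR and LMO2 showed smaller differences between null and wild type. TAL1 had 1.67 RPM of H3K27ac in wild-type, 2.28 in heterozygous, 1.89 in null and 1.04 RPM in restored ESCs, and KDR had 1.09, 1.75, 1.52 and 1.42 RPM, so the heterozygous value was the highest at both. LMO2 had 1.07, 1.196, 1.58 and 0.866 RPM, with the null value the highest. Of the unmarked genes, PECAM1 went from 2.89 RPM in wild type to 4.57 in null, with 2.60 RPM in restored ESCs, at an internal start site, but at its most upstream start site the values were 3.65 in wild-type, 4.26 in heterozygous, 4.70 in null and 4.52 RPM in restored ESCs. CDH5, also at an internal start site, went from 2.03 to 2.51 RPM with 2.496 in restored ESCs. TEK went from 2.46 to 2.202 RPM. H3K4me3 at TAL1 was 16.2 RPM in wild-type and 9.33 in null ESCs, the largest of the H3K4me3 differences (-0.79) among the 10 genes, and at TEK it was 2.92 and 1.77 RPM (-0.69). At FLI1 it was 16.5 and 14.1 RPM. H3K4me1 was higher in null than in wild-type ESCs at all 10 genes, by 0.13 to 0.65, and at 59.0% of all names (median 0.11). Over the 7 marked genes the median was 0.36, beside 0.36 over all marked names, 86.8% of which were higher. Input in null ESCs differed from wild type by -0.11 to 0.29 at the windows of the 10 genes.

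Genes called in the RNA were found both with and without the mark in wild type. Of the 7 marked genes, FLI1 and SOX18 were called higher in null than in wild-type ESCs and 0 were called lower, where 19.1% of the 4656 tested genes with a marked promoter were called higher and 18.7% lower. Of the 3 unmarked genes, CDH5 and PECAM1 were called higher and TEK lower, where 10.7% and 18.8% of the other 15905 tested genes were. In null relative to restored ESCs, 2 of the 7 marked genes (FLI1 and SOX18) and 1 of the 3 unmarked (CDH5) were called higher, beside 7.26% and 1.28%, and 0 were called lower, beside 0.451% and 0.547%. TAL1 and FLI1 had 39.6 and 47.0 RPM of H3K27me3 and 5.53 and 3.75 RPM of EZH2, while their RNA differed between null and wild type by -1.26 (not called, adjusted p = 0.057) and 4.31 (called). Between null and restored cells their RNA differed in the same direction, by 0.71 (not called) and 1.86. This contrast between 2 single genes was picked after their values were seen and was not tested.

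**Figure D4:**
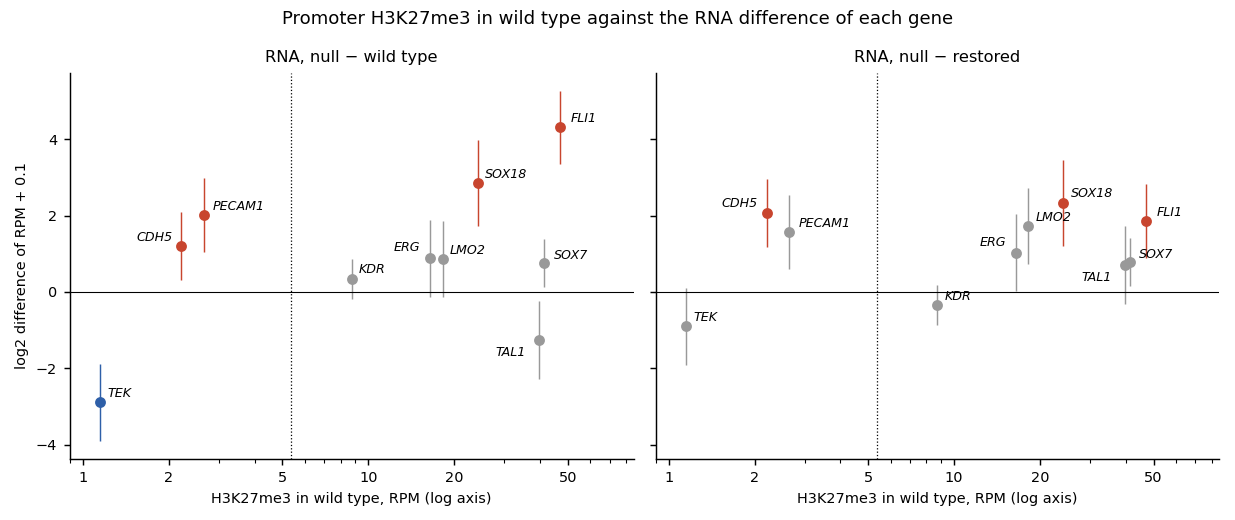
Log2 difference of RPM + 0.1 of each gene, with its 95% interval, against its H3K27me3 in wild-type ESCs in RPM on a log axis, for null against wild type (left) and null against restored cells (right). Red points are called higher, blue lower and grey not called, and the dotted line is the 5.36 RPM level of the rule. Called genes lie on both sides of the line, and TAL1 and FLI1, at 39.6 and 47.0 RPM, lie at -1.26 (not called) and 4.31 in the left panel and at 0.71 and 1.86 in the right.

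The CpG content of the 5 kb windows chosen for each gene followed the split into marked and unmarked genes. The marked windows held 142 (KDR), 172 (TAL1), 183 (FLI1), 219 (LMO2), 228 (ERG), 317 (SOX7) and 349 (SOX18) CpGs, and the unmarked ones 33 (TEK), 51 (CDH5) and 64 (PECAM1). These chosen windows did not overlap in CpG number, but other windows of the same genes did. A marked window of LMO2 held 54 CpGs, and the unmarked window at the most upstream start site of PECAM1 held 100. The median was 186 over all marked and 86 over all unmarked gene names. Among all names with 150 to 200 CpGs, 29.1% were marked, with a median of 2.65 RPM of H3K27me3, so TAL1 and FLI1 had far more of the mark than most promoters of their CpG content. This is a description of 10 genes that were chosen together.

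**Figure D5:**
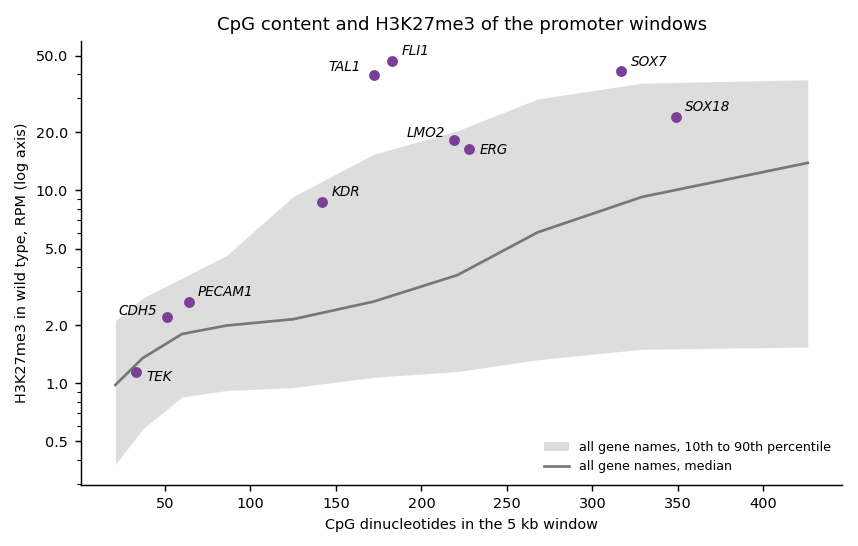
H3K27me3 in wild-type ESCs in RPM on a log axis against the number of CpG dinucleotides in the 5 kb window, for the 10 genes (points) and for all gene names (line, median, and grey band, 10th to 90th percentile, in bins of CpG number). TEK, CDH5 and PECAM1 lie at 33 to 64 CpGs within the band, and TAL1 and FLI1, at 172 and 183 CpGs, lie above it.

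Other genes of the pathway, taken from lists of ligands, receptors, transcription factors and blood factors, were called higher more often than lower in null ESCs. Of 58 such genes 49 passed the filter on low values (a mean of 0.1 RPM), and 17 of them were called higher and 7 lower in null than in wild-type ESCs. Against restored cells 10 were called higher and 0 lower by limma, or 17 and 0 with the replicate block, and the count of 10 fell to 2 to 4 without null library 2 or 3 or any 1 restored library. The share of all genes called is given above (12.6% and 18.8%, and 2.63% and 0.524%).

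The other endothelial transcription factors held most of these calls. Of 15 tested, 11 were called higher and 1 lower in null than in wild-type ESCs, with a median log2 difference of 1.99, and 6 were called higher than in restored cells. FOXC2, a forkhead factor of vessels and mesoderm, rose from 0 to 0.0507 RPM in wild-type to 1.64 to 3.96 RPM in null libraries (4.48, adjusted p = 9.2e-05). KLF2, a factor induced by blood flow, went from 0.133 to 0.284 up to 1.44 to 3.95 RPM (3.17, adjusted p = 0.00045) and FOXC1 from 0.200 to 0.304 up to 2.34 to 3.604 RPM (3.03, adjusted p = 4.9e-05). Several of the 11 have known roles outside vessels. SOX17 and HHEX also act in endoderm, and FOXC1 and FOXC2 in mesoderm of many kinds.

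Receptors and surface proteins went both ways. Of 16 tested, 3 were called higher and 4 lower against wild type, and 1 higher against restored cells. CLDN5, a tight-junction protein, fell from 1.01 to 2.60 RPM in wild-type to 0.0880 to 0.327 RPM in null libraries (-2.61, adjusted p = 0.00048). PLVAP, a protein of vessel wall diaphragms, rose over wild type by 2.05 (adjusted p = 0.019). It was at 0.0219 to 0.0666 RPM in wild-type libraries, at or under the floor of detection, and at 0.141 to 1.45 RPM in null libraries. NRP1, a coreceptor of VEGF, was higher than in restored cells by 2.33 (adjusted p = 0.017), while its difference from wild type was 0.98 (adjusted p = 0.12).

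Of 9 ligands tested, 2 were called higher and 1 lower against wild type, and 2 higher against restored cells. ANGPT2, an angiopoietin that binds TEK, was at 0.503 to 0.977 RPM in wild-type, 1.14 to 4.69 in null and 0.309 to 0.440 RPM in restored libraries (1.44 against wild type, adjusted p = 0.033). PGF, a relative of VEGF, rose by 1.24 (adjusted p = 0.0072) and APLN, a peptide ligand, fell by 2.94 (adjusted p = 0.017). Of 9 blood factors tested, RUNX1, which is needed for the first blood stem cells, rose over wild type by 2.08 (adjusted p = 0.0030). TCF12, a partner of TAL1 that is expressed in many tissues, fell by 0.85 (adjusted p = 0.0086). KLF1 was higher than in restored cells by 1.58 (adjusted p = 0.039). Its values were low, at 0.281 to 0.683 RPM in null and 0.0799 to 0.134 RPM in restored libraries. With voom weights or without a filter, 0 blood factors were called against restored cells.

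Markers of some cell types were higher in null ESCs and others were not, and their part in the results was not tested. Of all genes, 12.6% were called higher and 18.8% lower against wild type, and 2.63% and 0.524% against restored cells. Summed over 7 early mesoderm markers, RNA was at 17.5 to 47.7 RPM in wild-type, 7.08 to 76.3 in heterozygous, 142 to 228 in null and 28.1 to 131 RPM in restored libraries, all 7 were detected, and 4 were called higher against wild type and 2 against restored cells. The sum of 5 endoderm markers was 19.4 to 32.6, 11.5 to 94.8, 76.7 to 156 and 15.4 to 31.8 RPM, with 3 called higher against wild type and 2 against restored cells. Markers of differentiated endothelium and blood were low in all genotypes. The 7 endothelial markers summed to 2.79 to 8.97 RPM in wild-type, 2.95 to 5.75 in heterozygous, 3.24 to 6.44 in null and 1.68 to 3.05 RPM in restored libraries. Of the 5 that passed the filter, 2 were called higher and 1 lower in null than in wild-type ESCs. Against restored cells 0 were called higher and 0 lower. Of 7 blood markers 1 passed the filter, ITGA2B of the megakaryocyte lineage, with 5.06, 7.00 and 7.67 RPM in wild-type and 1.64, 1.52 and 4.90 RPM in null libraries (-1.45, adjusted p = 0.021), and HBZ had 0 reads in all 12 libraries. PTPRC and EMCN had no read in restored libraries.

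The 8 markers of undifferentiated ESCs summed to 2216 to 2802 RPM in wild-type, 2977 to 3600 in heterozygous, 3260 to 3661 in null and 3169 to 3691 RPM in restored libraries, so wild-type libraries were the lowest. In null relative to wild-type ESCs 4 of the 8 were called higher and 1, SOX2, lower (-1.05, adjusted p = 0.0026). The 6 markers of mesenchyme summed to 228 to 317, 124 to 200, 101 to 368 and 113 to 150 RPM in the same order, most of it COL1A1 and COL1A2 in wild type. Their members did not move together. In null ESCs COL3A1 (4.46), TWIST1 (4.48) and LUM (3.02) were called higher than in wild type and COL1A2 (-1.07) lower, and the first 3 were also called higher than in restored cells, by 6.94, 4.43 and 4.299.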

How the data were processed

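RNA-seq (3 libraries for each of 4 genotypes) and ChIP-seq were analysed from the deposited tables. Per the labels and the methods of the study, reads were processed with Trim Galore 0.4.0, aligned to GRCh38 with TopHat2 2.0.12 (RNA, Ensembl release 70 gene models) or Bowtie2 2.2.5 (ChIP) and counted in SeqMonk, RNA without strand and ChIP as non-duplicated reads extended by 200 bp. The authors deposited log2 RPM, with a gene without a read entered as 0.9 of 1 read. Here values were returned to RPM and such entries set to 0. The RNA values worth under 1000 reads all came out whole (100%, tolerance 0.01 of a read), so reads were recovered. ChIP values could not be returned to reads of single libraries.

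Tests used limma 3.58.1 in R 4.3.3 (lmFit, eBayes with trend) on log2(RPM + 0.1) of 20608 genes whose mean over all libraries reached 0.1 RPM, out of 35805. All 10 genes passed. Same-numbered libraries of different genotypes deviated together (18 of 18 pairs above 0.1, correlation 0.11 to 0.56). Other pairs ranged from -0.49 to 0.24 (mean -0.16), so the ranges overlapped and some of these pairs also passed 0.1. Deviations were taken from the mean of each genotype, so positive same-numbered pairs make the mean of the others negative. That mean is no separate evidence of pairing. Pairing by library number was therefore treated as possible, not as established. The main calls leave the number out. Where entering it in limma as a block changed a call, that result is given beside the main one. The fits were also run on simulated counts, drawn independently for each library with a single spread and no effect of library number. That run checks the fitting and cannot test the calls. Alternatives were another pseudocount, 2 other filters, median-ratio scaling, voom weights, the block and leaving out libraries. Genes named beyond the 10 are up to 3 per list, those with the largest difference among genes called in a null comparison, and the 3 closest in pattern to each called gene. Outside this rule SOX17, HHEX, the single markers and the genes overlapping the 10 are named, chosen after their values were seen. The 10 genes, lists and tests were chosen with earlier results of these data known. The ChIP-seq table has 2 windows without a gene name, which were left out. Exon lengths came from GENCODE release 44. Figures were drawn with matplotlib 3.10.9 in Python 3.11.15. The separate result of 1 marker gene is not reported here.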

Additional observations from a re-analysis of the deposited data

How the results depend on the processing

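Of 492 member fold changes refitted under the alternatives, 434 stayed on their side of the threshold, 41 lost it, 17 gained it and 0 called values changed sign. The replicate block (library numbers as pairs) gave 5 genes higher in null than in restored cells in place of 3, and 17 of the wider lists in place of 10. It gave 2 lower in null and 1 lower in heterozygous than in wild-type cells, 2 higher in restored than in wild-type cells, and changed no other call than those given with the genes. Without a filter on low values, 0 genes were higher in null than in restored cells, 0 were lower in restored than in wild-type cells, and the wider lists had 2 higher against restored cells and 3 lower against wild type. With a mean of at least 1 RPM, which leaves 3 of the 10 genes, these counts were 0 of 3 higher, 1 lower, and 1 higher in null than in wild type, with 5 of the wider lists higher against restored cells. Voom weights gave 1 higher against restored cells, and 3 of the wider lists. A pseudocount of 1 RPM gave 4 higher against restored cells, and 5 higher and 2 lower in null than in wild-type cells. Leaving out libraries gave 0 to 3 higher and 0 lower in null than in restored cells, 3 to 5 higher and 1 to 2 lower in null than in wild type, 0 in heterozygous cells, and 1 to 2 higher and 0 to 2 lower in restored than in wild type. For the wider lists, checked after the data were seen, it gave 2 to 12 higher and 0 lower against restored cells and 11 to 17 higher and 4 to 7 lower against wild type (9 without library 3 of every genotype). The causes were not tested. The median H3K27me3 change of heterozygous cells (0.17) was -0.00095 over all windows. For restored cells, the H3K27me3 change was -0.079 after centring on promoters without H3K27me3, and the H3K4me3 change (0.05) was 0.30 after it and -0.14 with the first listed window. The H3K4me1 change of restored cells (0.05) was -0.040 with the first listed window and -0.030 over all windows, and that of heterozygous cells (0.14) was -0.044 with the first. The H3K27ac change of heterozygous cells (0.41) was 0.00042 with the first listed window. The depth, with a floor of 0.0528 to 0.120 RPM, limits genes with few reads, such as ERG.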

Other observations

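The genes closest in pattern to the called members over the 12 libraries, among the 15498 or 15499 other genes whose mean reached 1 RPM, are given as a description, since libraries of a genotype share their history and the correlations partly restate the differences between genotypes. FLI1 was closest to GPR50, SYN2 and MRS2 (Pearson r of 0.97, 0.97 and 0.96) and SOX18 to DYNC1I1, ZAP70 and UPP1 (0.98, 0.98 and 0.97). CDH5 was closest to ZNF703, T, the primitive streak regulator brachyury, and FAM107B (0.93 each). PECAM1 was closest to PITRM1-AS1, ZNF524 and RBM42 (0.96 each), and TEK, which was lower in null ESCs, to APPL2, TK2 and CDS2 (0.93, 0.93 and 0.92). None of these neighbours is among the 10 genes or the lists of the pathway, other than T, which is on the list of early mesoderm markers.

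Null library 1 held the lowest null value of PECAM1, TEK, LMO2, SOX7 and SOX18 and the highest null value of KDR, FLI1, TAL1 and CDH5.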
